A study of Mus musculus with 24 samples.

Results

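The spindle checkpoint genes described here are Ttk, Bub1, Bub1b, Bub3, Mad1l1 and Mad2l1. Their rows were picked by gene symbol from the deposited table, 6 of 23235 genes, and all 6 passed the filter on low values (a group mean of 1 FPKM or more in any group). The study sequenced RNA of C57BL/6 mouse oocytes and zygotes in 24 libraries, 2 for each pairing of 3 genotypes with 4 stages. Mice were wild type (WT), Cnot6l-/- or labelled Btg4-/- (called Btg4-labelled from here on), no group is given a further agent, and the animals were at postnatal day 21. Oocytes at the germinal vesicle stage (GV), before meiosis resumes, came from females 48 h after injection of the hormone PMSG. Oocytes in the first meiotic division (MI) and arrested in the second (MII) had been cultured from GV for 8 and 16 h, and zygotes were collected 24 h after hCG. The number of oocytes per library is given as 100 in the extraction protocol and as 2 in the design of the series. Nothing says whether the 2 libraries of a group came from separate mice, so the p-values measure the spread between these libraries, which may be technical. The study asks how stored maternal transcripts are removed as meiosis proceeds, and how this changes without CNOT6L or BTG4.

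The spindle checkpoint holds a dividing cell back until every chromosome is attached to the spindle. The kinase TTK, also called MPS1, starts the signal at unattached kinetochores, where BUB1 and BUB3 gather the other proteins and MAD1 (from Mad1l1) converts MAD2 (from Mad2l1) into its active form. MAD2, BUBR1 (from Bub1b) and BUB3 then bind CDC20 and keep the anaphase-promoting complex from acting on securin and cyclin B. A growing oocyte stores these mRNAs, and transcription is silent from the fully grown oocyte until after fertilization, so that levels in this window depend on how stored mRNA is kept, polyadenylated and degraded. The CCR4-NOT complex shortens poly(A) tails, with CNOT6L among its catalytic subunits, and BTG4 is an adaptor that binds it.

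Because tail length is set through the end of the 3′ untranslated region (3′ UTR), 30 bases of that region are shown for each member, from the gencode vM1 annotation on mm9, 5′ to 3′ on the strand of the mRNA. Capitals mark a cytoplasmic polyadenylation element (CPE, searched as TTTTAT or TTTTAAT on the sense strand only) or the last poly(A) hexamer (AATAAA or ATTAAA). For Mad2l1 and Bub1b the stretch holds both, for Ttk it holds the CPE nearest the hexamer, and for the other members, in which no CPE was found, it ends with the hexamer.
Ttk: gttgtgcttttcTTTTATgcttttctgtaa
Bub1: tactatttatgtatgtttaaaaaaAATAAA
Bub3: ctcaccctctcaatttgcctgtttATTAAA
Bub1b: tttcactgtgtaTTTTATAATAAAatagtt
Mad1l1: gtgtccacagtctcagactaatgaAATAAA
Mad2l1: tgtAATAAAgaactcttaTTTTAATgtttt
These lie at chr9:83765877-83765906 (+), chr2:127626875-127626904 (-), chr7:138715361-138715390 (+), chr2:118467289-118467318 (+), chr5:140484669-140484698 (-) and chr6:66490956-66490985 (+), in this order, and all are exonic 3′ UTR sequence.

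A CPE was found in 3 of the 6 members, and its place differed. Bub1b held 2 in a 3′ UTR of 273 bases, the nearer of them directly before the hexamer, with 0 bases between. Mad2l1 held 1 in 1048 bases, 9 bases after the hexamer. Ttk held 2 in 321 bases, the nearer 73 bases before the hexamer. None was found in the 3′ UTRs of Bub1 (121 bases), Bub3 (1010 bases) and Mad1l1 (945 bases). Within the last 150 bases, a window chosen after these positions were seen, 25.8% of 9358 tested genes with a 3′ UTR that long held a CPE, and 22.7% of 17495 protein-coding genes, each by its longest annotated 3′ UTR. By the same measure 3 of the 5 members with a 3′ UTR that long held one, and Bub1 fell outside the count. The annotated ends are not secure for all members. The deposited span of Bub1 ran 922 bases beyond the transcript searched, and the transcript of Ttk ran 2896 bases beyond the deposited span, so that the site printed for Ttk lies outside that span. A match of letters is a description and no measurement of tail length or binding.

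The members lie on 5 chromosomes of mm9. Ttk spans 83728296 to 83763100 on chromosome 9 (plus strand), Bub3 138703905 to 138715412 on chromosome 7 (plus strand) and Mad2l1 66485462 to 66490985 on chromosome 6 (plus strand). Bub1 spans 127625936 to 127657595 (minus strand) and Bub1b 118423947 to 118467328 (plus strand), both on chromosome 2. Mad1l1 spans 140484643 to 140797506 on chromosome 5 (minus strand), and its exons overlap those of Gm16121 on the plus strand. The Smart-Seq2 protocol does not mark strand, so where these exons overlap, reads of Mad1l1 and Gm16121 cannot be told apart.

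Values are as deposited and labelled FPKM, a name for fragments per kilobase of transcript relative to the mapped fragments of the library. Their sum per library ranged 10.9-fold, from 49930 in a WT zygote library to 545784 in a Btg4-labelled GV library. With such a range, scaling to the mapped fragments of each library alone cannot be assumed. In WT the mean sum was 497690 ± 64994 at GV, then 159243 ± 34476 (MI), 98984 ± 5931 (MII) and 62984 ± 18461 (zygotes; SD, n = 2). At MI they were 301582 ± 6789 in Cnot6l-/- and 377544 ± 15619 in Btg4-labelled oocytes. The scaling between libraries, too, is one of the steps not given in the sources used here, and less RNA per cell cannot be told apart from fewer cells. Each difference was therefore also computed after median-ratio scaling, which divides each library by 1 number so that they match on 3677 genes that exceed 1 FPKM everywhere. Read depth is unknown. Tail length was not measured, and its effect on how well an mRNA is captured in these libraries was not tested. A change of FPKM may therefore not be a change of transcript amount alone. The Cnot6l transcript was at 5.92 and 4.30 FPKM in Cnot6l-/- GV oocytes, below the WT libraries with 73.9 and 24.1. The Btg4 transcript was at 1641 and 2515 FPKM at GV in Btg4-labelled oocytes and at 2490 and 2120 in WT, and since the allele is not described, this does not check the label. All 10 oocyte markers were detected in every group, and their sum lay between 17105 and 17854 FPKM in WT GV libraries and between 1626 and 1856 in WT zygotes. Markers of cumulus and granulosa cells summed to at most 29.1 FPKM in any library, those of blood and immune cells to at most 3.1 and those of sperm to at most 105.4, the last in Cnot6l-/- GV oocytes.

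In WT GV oocytes Mad2l1 was the most abundant of the 6, with 248 and 172.5 FPKM (mean 210.3 ± 53.4, SD, n = 2). Bub1b followed with 155.6 and 103.8 FPKM (129.7 ± 36.6), then Bub3 with 87.9 and 75.5 (81.7 ± 8.77) and Ttk with 82.1 and 64.8 (73.4 ± 12.3). Bub1 stood at 26.8 and 13.7 FPKM (20.3 ± 9.32) and Mad1l1 at 7.30 and 10.3 (8.80 ± 2.12). Of the neighbours in this order, Bub3 and Ttk overlapped between libraries and the others did not. The order changed by MII, where Mad2l1 (97.7 ± 19.7 FPKM) and Bub1b (67.5 ± 14.6) were followed by Bub3 at 6.55 ± 0.27, Ttk at 3.15 ± 0.76, Mad1l1 at 1.54 ± 0.40 and Bub1 at 0.76 ± 0.21. Mad2l1 and Bub1b did not overlap at MII and were each above every library of the other 4 members.

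**Figure D1:**
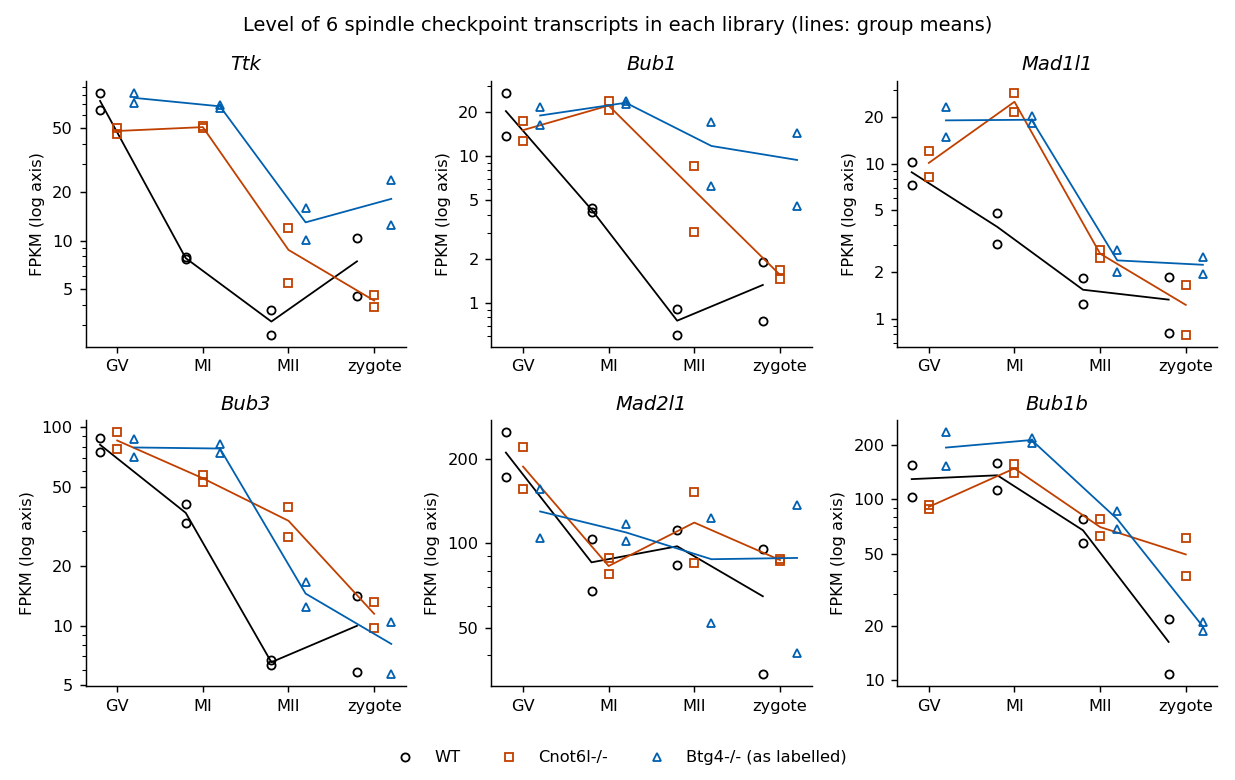
FPKM of each member (log axis) in every library, by stage and genotype; points are libraries and lines join the group means of 2 libraries. In WT, all members but Bub1b fell by MI. At MI, Ttk was at 106% of its GV mean in Cnot6l-/- and 88.6% in Btg4-labelled oocytes, and Bub1 at 147% and 122%. Mad2l1 was at 44.3% and 84.3%, against 40.7% in WT.

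Between GV and MI in WT, 5 of the 6 members were called lower (limma on log2(FPKM + 1), Benjamini-Hochberg adjusted p under 0.05), while 65.1% of all 10884 tested genes were called lower. Ttk fell furthest, from 82.1 and 64.8 FPKM at GV to 7.88 and 7.71 at MI, a log2 difference of -3.07 ± 0.38 (SE; adjusted p = 2.2e-06). Bub1 fell from 26.8 and 13.7 to 4.47 and 4.20 FPKM, a log2 difference of -1.92 ± 0.49 (adjusted p = 0.0026). For both kinases the MI libraries lay well below the GV libraries and close to each other.

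Bub3, whose protein carries BUB1 and BUBR1 to kinetochores, had 87.9 and 75.5 FPKM at GV and 41.2 and 32.9 at MI (log2 difference -1.12 ± 0.35, adjusted p = 0.0094). Mad1l1 had 7.30 and 10.3 FPKM at GV and 4.79 and 3.02 at MI (-1.01 ± 0.31, adjusted p = 0.0086). Mad2l1 had 248 and 172.5 FPKM at GV and 103.4 and 67.9 at MI (-1.29 ± 0.55, adjusted p = 0.047). The median of all tested genes was -0.95 on the log2 scale, close to these 3 values, and that of the 6 members was -1.21. Bub1b did not follow: its MI libraries, at 159 and 113.3 FPKM, overlapped its GV libraries at 155.6 and 103.8 (log2 difference 0.08 ± 0.35, adjusted p = 0.86). The call of Mad2l1 was lost when any of the 4 libraries was left out (limma adjusted p up to 0.24), that of Mad1l1 without WT GV library 2 or MI library 3 (adjusted p = 0.073 and 0.11), and that of Bub3 without WT GV library 1 or MI library 3 (0.065 and 0.076). After scaling, 1 member was called lower, Ttk at -1.85 ± 0.25, and 1 higher, Bub1b at 1.33 ± 0.37 (limma adjusted p = 2e-05 and 0.0086), where 30.5% of 9823 tested genes were called lower and 15.2% higher; Bub1, at -0.77 ± 0.36, was not called (adjusted p = 0.093), and Mad1l1, at 0.05, and Bub3, at 0.12, changed sign without being called.

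From MI to MII in WT, 5 of 6 members were called lower again, beside 32.6% of all tested genes. Bub3 showed the largest log2 difference of this step, with a fall to 6.74 and 6.36 FPKM (-2.33 ± 0.35, adjusted p = 8.2e-05). By the ratio of the MII to the MI mean, Bub1 fell as far (0.175, against 0.177 for Bub3). The pseudocount makes the log2 difference of Bub1 smaller. Bub1 reached 0.91 and 0.61 FPKM (-1.60 ± 0.49, adjusted p = 0.018), and Ttk 3.69 and 2.61 FPKM (-1.10 ± 0.38, adjusted p = 0.033). In this interval Bub1b fell for the first time, to 57.2 and 77.8 FPKM (-1.0 ± 0.35, adjusted p = 0.038), and Mad1l1 reached 1.25 and 1.82 FPKM (-0.94 ± 0.31, adjusted p = 0.026). Mad2l1 was the exception, with MII libraries at 111.6 and 83.8 FPKM that overlapped those of MI (0.20 ± 0.55, adjusted p = 0.83). Bub3 alone kept its call in all 4 fits that left out 1 library: Bub1 and Ttk lost theirs in all 4 (adjusted p up to 0.10 and 0.19), Bub1b without MI library 2, MII library 1 or MII library 2 (adjusted p up to 0.29) and Mad1l1 without MI library 2 or MII library 1 (adjusted p = 0.26 and 0.17). After scaling, Bub3 (-1.74 ± 0.22, adjusted p = 2.9e-05) and Bub1 (-1.35 ± 0.36, adjusted p = 0.0097) remained called, 2 members beside 25.1% of genes called lower.

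Over the whole of maturation, from GV to MII, mean FPKM in WT eggs came to 4.29% of that at GV for Ttk and 3.75% for Bub1. It was 8.02% for Bub3 and 17.4% for Mad1l1, against 52.0% for Bub1b and 46.5% for Mad2l1. The log2 differences were -4.17 ± 0.38 for Ttk (adjusted p = 2.6e-08), -3.53 ± 0.49 for Bub1 (5.1e-06), -3.45 ± 0.35 for Bub3 (1e-07) and -1.94 ± 0.31 for Mad1l1 (2e-05). Bub1b was also called, at -0.92 ± 0.35 (adjusted p = 0.023), and Mad2l1, at -1.09 ± 0.55, was not (adjusted p = 0.074). Thus 5 of 6 members were called lower, and so were 83.4% of all tested genes, whose median was -1.37 beside -2.70 for the members. In a fit of these 4 libraries alone Mad2l1 was called (adjusted p = 0.032) and Bub1b was not (0.055). The call of Bub1b was also lost without WT GV library 1 (-0.63, adjusted p = 0.20) or WT MII library 1 (-0.70, adjusted p = 0.15), and the other 4 calls held in each such fit. On the scaled values Ttk (-2.43 ± 0.25), Bub1 (-2.12 ± 0.36) and Bub3 (-1.62 ± 0.22) were still called lower (adjusted p = 5.4e-07, 0.00011 and 1.1e-05), 3 of 6 beside 43.2% of genes, whereas Bub1b was called higher (1.0 ± 0.37, adjusted p = 0.032), 1 of 6 beside 14.9%. Mad2l1 also turned to 0.83 ± 0.37 without being called (adjusted p = 0.062), and Mad1l1 was no longer called (-0.46 ± 0.41, adjusted p = 0.35). The fall of Ttk, Bub1 and Bub3 to MII was therefore present on both scales, and the direction of Bub1b and Mad2l1 depended on the scale.

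In WT zygotes only Bub1b was called different from MII, 1 of 6 members called lower beside 3.22% of tested genes. It fell to 10.8 and 21.7 FPKM (-2.05 ± 0.35, adjusted p = 0.003). On the scaled values it was also called (-1.57 ± 0.37, adjusted p = 0.008), beside 4.86% of genes called lower. The call was lost without WT MII library 2 (adjusted p = 0.058) or zygote library 1 (0.053) and in a fit of these 4 libraries alone (0.31). Ttk stood at 10.4 and 4.52 FPKM, above both MII libraries (0.94 ± 0.38, adjusted p = 0.19), and Bub3 at 14.1 and 5.86, which overlapped those of MII (0.43 ± 0.35, adjusted p = 0.64). After scaling, Ttk (1.52 ± 0.25, adjusted p = 0.0006) and Bub3 (0.95 ± 0.22, adjusted p = 0.0065) were called higher than at MII, 2 of 6 members beside 15.0% of genes. Zygote library 1 of WT had higher values than library 2 for Ttk, Bub1, Bub3 and Mad2l1 and lower values for Bub1b and Mad1l1, so that the 2 WT zygote libraries differed in composition as well as in level.

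At GV, no member was called between Cnot6l-/- and WT oocytes, where 9.09% of tested genes were called in either direction, and none between the Btg4-labelled group and WT, where 7.43% were. At an unadjusted p under 0.05 the counts were 0 and 1 (limma), the 1 being Mad1l1, with 23.2 and 14.8 FPKM in Btg4-labelled oocytes against 7.30 and 10.3 in WT (log2 difference 1.01 ± 0.31, adjusted p = 0.054). It was called without library 2 of Btg4-labelled oocytes (1.32, adjusted p = 0.028). Ttk at GV was lower in both Cnot6l-/- libraries, at 49.7 and 46.0 FPKM, than in WT, without being called (-0.60 ± 0.38, adjusted p = 0.47). At GV, Bub1b and Ttk in Cnot6l-/- and Mad2l1 and Mad1l1 in Btg4-labelled oocytes did not overlap WT, and the other members did. The share of all genes is given neither for overlap nor for an unadjusted p under 0.05, so both are descriptions only. After scaling no member was called either (0 and 1 at an unadjusted p under 0.05, limma), beside 7.55% and 1.77% of genes.

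At MI, Cnot6l-/- oocytes had 3 of 6 members called higher than WT, beside 60.3% of tested genes. Btg4-labelled oocytes had 4 of 6, beside 68.7%. Both counts were close to or below the share over all genes, so a higher level at MI was not particular to the members. Ttk was at 49.6 and 51.5 FPKM in Cnot6l-/- and 66.5 and 69.6 in Btg4-labelled oocytes, against 7.88 and 7.71 in WT. These means were 6.48 and 8.73 times that of WT, with log2 differences of 2.55 ± 0.38 (adjusted p = 1.7e-05) and 2.97 ± 0.38 (adjusted p = 2.9e-06). Neither mutant group overlapped WT, and within each group the 2 libraries were close.

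Bub1 at MI was at 23.6 and 20.5 FPKM in Cnot6l-/- and 22.6 and 23.6 in Btg4-labelled oocytes, against 4.47 and 4.20 in WT. Its log2 differences were 2.11 ± 0.49 (adjusted p = 0.0013) and 2.17 ± 0.49 (adjusted p = 0.00092). For Mad1l1 the MI values were 21.6 and 28.5 FPKM in Cnot6l-/- and 20.2 and 18.2 in Btg4-labelled oocytes, against 4.79 and 3.02 in WT (log2 differences 2.42 ± 0.31, adjusted p = 3.3e-06, and 2.06 ± 0.31, adjusted p = 1.6e-05). As for Ttk, no mutant library of Bub1 or Mad1l1 came near the WT range. Bub3 was at 57.8 and 52.9 FPKM in Cnot6l-/- (0.57 ± 0.35, adjusted p = 0.16) and at 74.1 and 82.2 in Btg4-labelled oocytes (1.06 ± 0.35, adjusted p = 0.012), against 41.2 and 32.9 in WT. The call of Bub3 was lost without MI library 3 of WT (adjusted p = 0.091) or of Btg4-labelled oocytes (0.066), whereas the calls of Ttk, Bub1 and Mad1l1 held in every fit that left out 1 library.

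Mad2l1 and Bub1b set the other end of the range. Mad2l1 at MI had 88.5 and 77.7 FPKM in Cnot6l-/-, inside the WT range of 67.9 to 103.4 (-0.02 ± 0.55, adjusted p = 0.99), and 101.9 and 117 in Btg4-labelled oocytes (0.38 ± 0.55, adjusted p = 0.54). Bub1b had 140.8 and 156.5 FPKM in Cnot6l-/-, within the WT values of 113.3 and 159 (0.14 ± 0.35, adjusted p = 0.75), and 220.4 and 206.9 in Btg4-labelled oocytes, above both WT libraries (0.67 ± 0.35, adjusted p = 0.10). In fits of the MI libraries of the 2 groups compared, Bub3 in Cnot6l-/- (adjusted p = 0.037) and Bub1b in Btg4-labelled oocytes (adjusted p = 0.043) were called as well. After scaling, 3 of 6 members stayed called higher in Cnot6l-/-, Ttk at 1.65 ± 0.25, Bub1 at 1.25 ± 0.36 and Mad1l1 at 1.56 ± 0.41 (adjusted p = 6.4e-05, 0.0096 and 0.0057), beside 35.8% of genes. Mad2l1 was then called lower (-0.95 ± 0.37, adjusted p = 0.044), 1 of 6 beside 11.0%. In Btg4-labelled oocytes 2 of 6 stayed called higher after scaling, Ttk at 1.8 ± 0.25 and Bub1 at 1.05 ± 0.36 (adjusted p = 3.8e-05 and 0.027), beside 32.5%, and Mad1l1 was not (0.96 ± 0.41, adjusted p = 0.073). On the scaled values Bub3 changed sign, to -0.35 ± 0.22 in Cnot6l-/- and -0.14 ± 0.22 in Btg4-labelled oocytes, and was called in neither. Both mutant groups are compared with the same 2 WT libraries at each stage, so their differences share that error. At MI the summed oocyte markers were also higher in the mutants, at 12556 to 12850 FPKM in Cnot6l-/- and 14286 to 14744 in Btg4-labelled oocytes against 7542 to 10823 in WT, and their part in these differences was not tested.

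**Figure D2:**
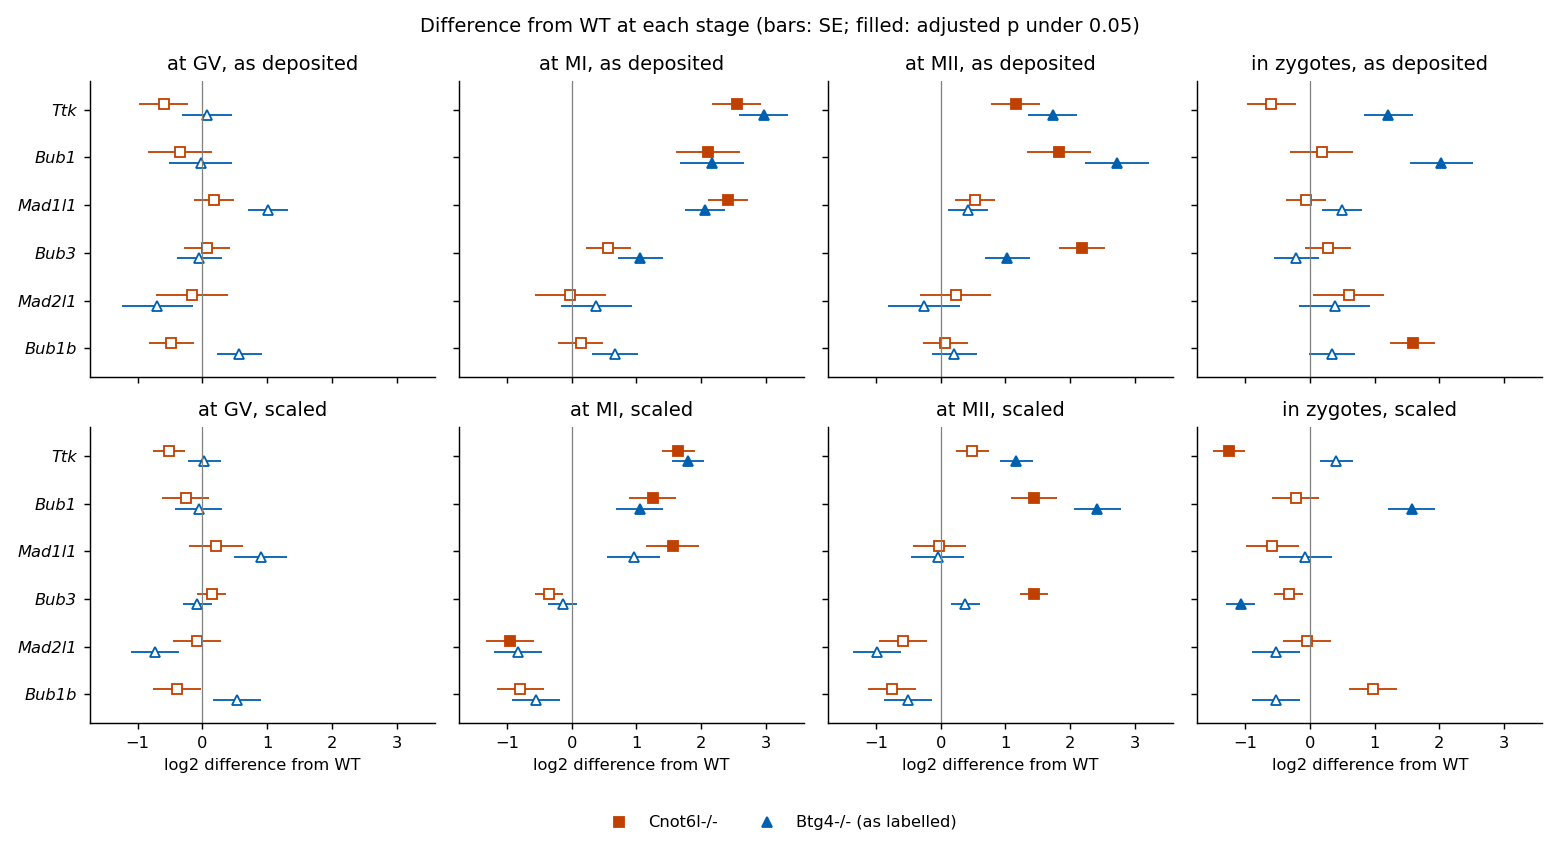
Log2 difference of each member from WT, by stage, for Cnot6l-/- (squares) and Btg4-labelled oocytes (triangles), with FPKM as deposited above and after median-ratio scaling below; bars are SE and filled symbols passed an adjusted p of 0.05. At MI, Ttk lies at 2.55 and 2.97 as deposited and at 1.65 and 1.8 after scaling. Mad2l1, Bub1b and Bub3 lie below 0 after scaling in both groups.

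At MII, 3 of 6 members were called higher than WT in Cnot6l-/- oocytes, beside 44.3% of tested genes, and 3 of 6 in Btg4-labelled oocytes, beside 28.3%. Bub3 was at 39.6 and 28.0 FPKM in Cnot6l-/- and 16.7 and 12.4 in Btg4-labelled oocytes, against 6.74 and 6.36 in WT (log2 differences 2.18 ± 0.35, adjusted p = 7.8e-05, and 1.03 ± 0.35, adjusted p = 0.035). Bub1 was at 8.61 and 3.07 FPKM in Cnot6l-/- and 17.2 and 6.31 in Btg4-labelled oocytes, against 0.91 and 0.61 in WT (log2 differences 1.83 ± 0.49, adjusted p = 0.006, and 2.72 ± 0.49, adjusted p = 0.00049). Ttk was at 12.1 and 5.45 FPKM in Cnot6l-/- and 15.9 and 10.04 in Btg4-labelled oocytes, against 3.69 and 2.61 in WT (log2 differences 1.16 ± 0.38, adjusted p = 0.019, and 1.73 ± 0.38, adjusted p = 0.0021). None of these mutant libraries overlapped WT, for which no share over all genes is given. Library 1 was above library 2 for all 3 genes in both mutant groups and also in WT. Without library 1 of Cnot6l-/- MII the differences of Bub1 and Ttk were 1.21 and 0.65 and not called (adjusted p = 0.12 and 0.28), and Ttk was not called without WT MII library 2 either (0.97, adjusted p = 0.13). In Btg4-labelled oocytes the call of Bub3 was lost without WT library 1 or 2 or its own library 1 (adjusted p = 0.11, 0.14 and 0.25).

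Mad1l1, well above WT at MI in both mutant groups, was nearer to WT at MII and not called. It stood at 2.47 and 2.79 FPKM in Cnot6l-/- and 2.00 and 2.77 in Btg4-labelled oocytes, against 1.25 and 1.82 (0.53 ± 0.31, adjusted p = 0.18, and 0.42 ± 0.31, adjusted p = 0.36). Neither mutant group overlapped WT as deposited, and their means were 1.71 and 1.55 times that of WT. The share of all genes without overlap is not given, so this is a description only. On the scaled values both groups overlapped WT for Mad1l1, with log2 differences of -0.02 and -0.05. As deposited, Mad2l1 and Bub1b overlapped WT at MII in both mutant groups. After scaling, Bub3 in Cnot6l-/- (1.44 ± 0.22, adjusted p = 7.2e-05) and Bub1 in both groups (1.44 ± 0.36, adjusted p = 0.0044, and 2.42 ± 0.36, adjusted p = 0.00011) stayed called, as did Ttk in Btg4-labelled oocytes (1.17 ± 0.25, adjusted p = 0.0023) but not in Cnot6l-/- (0.49 ± 0.25, adjusted p = 0.13). These were 2 of 6 members in each group, beside 34.3% and 21.8% of genes called higher.

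In zygotes, 1 member was called higher in Cnot6l-/-, beside 8.00% of tested genes, and 2 in Btg4-labelled zygotes, beside 21.5%. In Cnot6l-/- this was Bub1b, at 37.8 and 61.4 FPKM against 10.8 and 21.7 in WT (1.59 ± 0.35, adjusted p = 0.0082), and the other members overlapped WT. In Btg4-labelled zygotes it was Bub1, at 14.3 and 4.56 FPKM against 1.91 and 0.76 (2.03 ± 0.49, adjusted p = 0.0066), and Ttk, at 23.8 and 12.6 against 10.4 and 4.52 (1.21 ± 0.38, adjusted p = 0.029). A fit of only the groups compared called none of the 3 (adjusted p = 0.29, 0.16 and 0.28). The call of Bub1b was lost without WT zygote library 1 (1.12, adjusted p = 0.093) or Cnot6l-/- zygote library 2 (1.25, adjusted p = 0.14). Without WT zygote library 2 the differences of Bub1 and Ttk in Btg4-labelled zygotes were 1.66 and 0.69, and without that group's library 1 they were 1.30 and 0.77, none called (adjusted p = 0.094, 0.38, 0.15 and 0.35). After scaling, Bub1 was still called in Btg4-labelled zygotes (1.57 ± 0.36, adjusted p = 0.007), 1 of 6 beside 11.7%, and Ttk (0.41 ± 0.25, adjusted p = 0.31) and Bub1b in Cnot6l-/- (0.97 ± 0.37, adjusted p = 0.094) were not. Instead Ttk was called lower in Cnot6l-/- (-1.25 ± 0.25, adjusted p = 0.0028), 1 of 6 beside 7.91%, and Bub3 lower in Btg4-labelled zygotes (-1.07 ± 0.22, adjusted p = 0.0031), 1 of 6 beside 3.04%. The Cnot6l-/- zygotes held Ttk at 3.90 and 4.59 FPKM, which overlapped WT as deposited.

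From GV to MI within each mutant genotype, a comparison added after the MI values were seen, 1 of 6 members was called in Cnot6l-/-, Mad1l1, which rose from 8.21 and 12.01 to 21.6 and 28.5 FPKM (1.24 ± 0.31, adjusted p = 0.011), beside 8.37% of tested genes called higher. This call was lost without Cnot6l-/- GV library 1 or MI library 3 (adjusted p = 0.11 and 0.12) and with a pseudocount of 0.1 (adjusted p = 0.071). In Btg4-labelled oocytes no member was called from GV to MI (limma; 0 at an unadjusted p under 0.05), beside 1.66% of genes in either direction, and the 6 log2 differences ran from -0.22 to 0.29. Ttk over this step changed by 0.08 ± 0.38 in Cnot6l-/- and by -0.17 ± 0.38 in Btg4-labelled oocytes, against -3.07 ± 0.38 in WT. After scaling the count was 1 in Cnot6l-/-, Mad1l1 again (1.40 ± 0.41, adjusted p = 0.027), beside 11.9% of genes called higher, and 0 in Btg4-labelled oocytes (limma; 0 at an unadjusted p under 0.05), beside 0.377% in either direction.

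The difference of these changes was tested directly. The GV to MI change of Ttk exceeded that of WT by 3.15 ± 0.53 in Cnot6l-/- (adjusted p = 0.00017) and by 2.90 ± 0.53 in Btg4-labelled oocytes (adjusted p = 0.00033). That of Bub1 exceeded it by 2.46 ± 0.70 (adjusted p = 0.0086) and 2.21 ± 0.70 (adjusted p = 0.016), and that of Mad1l1 by 2.24 ± 0.43 (adjusted p = 0.00053) and 1.05 ± 0.43 (adjusted p = 0.058). So 3 of 6 members were called in Cnot6l-/-, beside 44.4% of genes, and 2 in Btg4-labelled oocytes, beside 45.4%, shares close to or below those of all genes. Mad2l1 kept 44.3% of its GV mean at MI in Cnot6l-/- and 40.7% in WT, and the changes, -1.15 ± 0.55 and -1.29 ± 0.55, differed by 0.15 ± 0.78 (adjusted p = 0.90). Bub3 (0.51 ± 0.49, adjusted p = 0.42) and Bub1b (0.62 ± 0.50, adjusted p = 0.32) were not called in Cnot6l-/- either. In Btg4-labelled oocytes the differences of Bub3 (1.11 ± 0.49, adjusted p = 0.075), Mad2l1 (1.07 ± 0.78, adjusted p = 0.27) and Bub1b (0.09 ± 0.50, adjusted p = 0.90) did not pass. Without WT GV library 1 Bub1 was not called in Cnot6l-/- (adjusted p = 0.052) or in Btg4-labelled oocytes (0.086), and without GV library 2 of the latter it was not called either (0.056); Mad1l1 was called there without WT GV library 1 (1.27), WT MI library 2 (1.31, adjusted p = 0.037) or its own GV library 1 (1.36, adjusted p = 0.029). After scaling, Ttk exceeded WT by 2.17 ± 0.35 and 1.76 ± 0.35 (adjusted p = 0.00069 and 0.0022) and Bub1 by 1.51 ± 0.51 in Cnot6l-/- (adjusted p = 0.045), while Mad1l1 in Cnot6l-/- (1.35 ± 0.59, adjusted p = 0.11) and Bub1 in Btg4-labelled oocytes (1.12 ± 0.51, adjusted p = 0.13) were not called. These were 2 and 1 of 6 members, beside 18.7% and 18.2% of genes.

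From GV to MII, 4 of 6 members were called lower in Cnot6l-/-, beside 59.9% of genes, and 4 in Btg4-labelled oocytes, beside 75.3%. Mad2l1 was called in neither (adjusted p = 0.28 in both), and Bub1b in Cnot6l-/- was not (-0.37 ± 0.35, adjusted p = 0.36). In Cnot6l-/- these were Ttk (-2.41 ± 0.38, adjusted p = 4e-05), Mad1l1 (-1.59 ± 0.31, adjusted p = 0.00029), Bub1 (-1.34 ± 0.49, adjusted p = 0.027) and Bub3 (-1.33 ± 0.35, adjusted p = 0.0034). In Btg4-labelled oocytes they were Mad1l1 (-2.54 ± 0.31, adjusted p = 1.5e-06), Ttk (-2.50 ± 0.38, adjusted p = 1.7e-05), Bub3 (-2.37 ± 0.35, adjusted p = 1.3e-05) and Bub1b (-1.28 ± 0.35, adjusted p = 0.0038), while Bub1 kept 62.1% of its GV mean with overlapping libraries (-0.78 ± 0.49, adjusted p = 0.16). The call of Bub1 in Cnot6l-/- was lost without GV library 1 (adjusted p = 0.14) or MII library 2 (-0.72, adjusted p = 0.32), that of Bub1b in Btg4-labelled oocytes without GV library 1 (adjusted p = 0.053), and Bub1 there was called without MII library 1 (-1.43, adjusted p = 0.026). After scaling, Ttk remained called in Cnot6l-/- (-1.42 ± 0.25, adjusted p = 0.00056) and Mad1l1, Bub3 and Ttk in Btg4-labelled oocytes (-1.41, -1.16 and -1.29, adjusted p = 0.015, 0.00052 and 0.00062), 1 and 3 of 6 members beside 23.4% and 29.7% of genes called lower. Mad2l1 in both groups, Bub1b in Cnot6l-/- and Bub1 in Btg4-labelled oocytes had positive differences on that scale, none called.

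The GV to MII change was smaller than in WT for 3 members in Cnot6l-/-, beside 24.1% of genes, and for 2 in Btg4-labelled oocytes, beside 13.3%. In Cnot6l-/- the differences were 2.18 ± 0.70 for Bub1 (adjusted p = 0.03), 2.12 ± 0.49 for Bub3 (adjusted p = 0.0045) and 1.76 ± 0.53 for Ttk (adjusted p = 0.023). In Btg4-labelled oocytes they were 2.75 ± 0.70 for Bub1 (adjusted p = 0.013) and 1.66 ± 0.53 for Ttk (adjusted p = 0.046). Bub3 kept its call in each of the 8 fits that left out 1 library. In Cnot6l-/- Bub1 lost it in 6 of 8, all but those without WT GV library 2 or Cnot6l-/- MII library 2 (adjusted p up to 0.16), and Ttk in 5 of 8, without WT GV library 1, WT MII library 2, either Cnot6l-/- GV library or Cnot6l-/- MII library 1 (up to 0.14). In Btg4-labelled oocytes Bub1 lost it in 3 of 8, without WT GV library 1, WT MII library 2 or its own MII library 1 (up to 0.095), and Ttk in 7 of 8, all but that without its own MII library 2 (up to 0.22). After scaling, Bub1 (1.70 ± 0.51) and Bub3 (1.31 ± 0.31) stayed called in Cnot6l-/- (adjusted p = 0.031 and 0.008), 2 of 6 beside 15.0% of genes, and Ttk did not (1.01 ± 0.35, adjusted p = 0.065). In Btg4-labelled oocytes Bub1 (2.49 ± 0.51) and Ttk (1.13 ± 0.35) stayed called (adjusted p = 0.0036 and 0.041), 2 of 6 beside 12.4%.

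**Figure D3:**
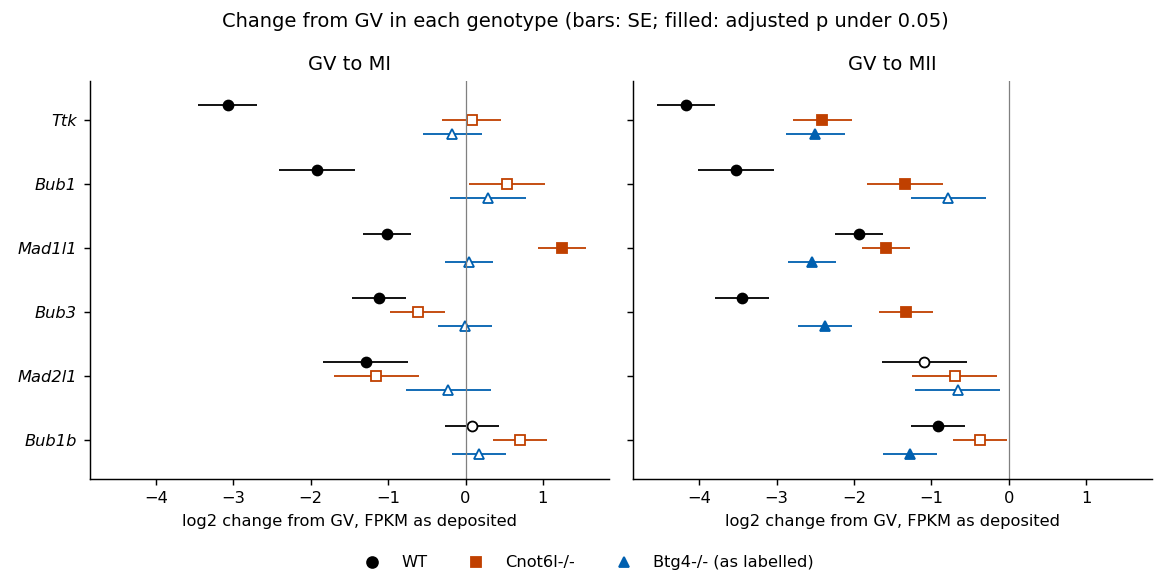
Log2 change of each member from GV to MI (left) and from GV to MII (right) in WT (circles), Cnot6l-/- (squares) and Btg4-labelled oocytes (triangles), FPKM as deposited; bars are SE and filled symbols passed an adjusted p of 0.05. From GV to MI, Ttk lies at -3.07 in WT and at 0.08 and -0.17 in the mutant groups; by MII it lies at -4.17, -2.41 and -2.50.

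Ratios of members within 1 library do not depend on how the library was scaled, and they were computed after the values were seen. The ratio of Ttk to Bub1b in WT was 0.528 and 0.624 at GV, 0.050 and 0.068 at MI and 0.065 and 0.034 at MII. At MI it was 0.352 and 0.329 in Cnot6l-/- and 0.302 and 0.336 in Btg4-labelled oocytes. All 4 mutant MI libraries thus lay above both WT libraries of that stage and below those of WT GV. In the GV libraries of the mutants this ratio was 0.534 and 0.517 in Cnot6l-/- and 0.349 and 0.468 in Btg4-labelled oocytes. The ratio of Bub1 to Bub1b was 0.173 and 0.132 in WT GV and 0.028 and 0.037 in WT MI, against 0.168 and 0.131 in Cnot6l-/- MI and 0.103 and 0.114 in Btg4-labelled MI. For Mad1l1 over Bub1b the WT MI ratios were 0.030 and 0.027, against 0.153 and 0.182 in Cnot6l-/- and 0.091 and 0.088 in Btg4-labelled oocytes. For Bub3 over Bub1b they were 0.259 and 0.290, against 0.410 and 0.338 and 0.336 and 0.397. For Mad2l1 over Bub1b they were 0.651 and 0.599, against 0.629 and 0.496 in Cnot6l-/-, which overlapped, and 0.463 and 0.565 in Btg4-labelled oocytes, which were lower. This ratio was already lower at GV in Btg4-labelled oocytes, at 0.442 and 1.02 against 1.594 and 1.663 in WT. In Cnot6l-/- GV it was 2.361 and 1.749. At MI the ratios of Ttk, Bub1, Mad1l1 and Bub3 thus lay above WT in all 4 mutant libraries, and that of Mad2l1 did not. Those of Ttk, Bub1 and Mad1l1 are drawn in the plot of ratios. Bub1b itself differed from WT at MI by 0.14 in Cnot6l-/- and 0.67 in Btg4-labelled oocytes (log2, as deposited). The medians over all tested genes were higher, 0.87 and 0.99. Many genes would thus have a ratio to Bub1b above WT, and their share was not computed. After scaling, Bub3 itself lay at -0.35 and -0.14 from WT.

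**Figure D4:**
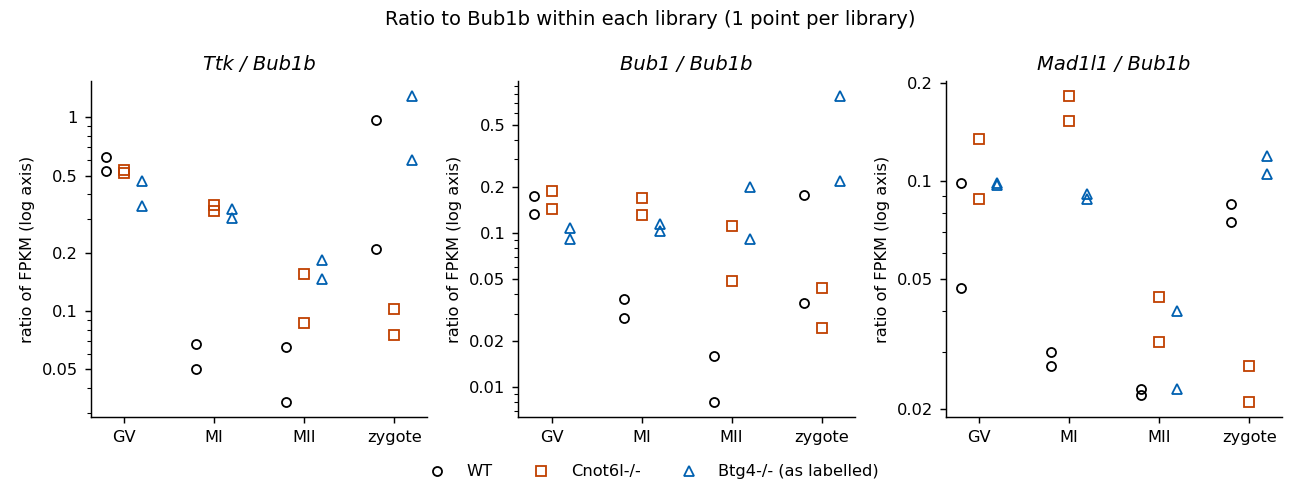
Ratio of Ttk, Bub1 and Mad1l1 to Bub1b (log axis) within each library, by stage and genotype, 1 point per library. At MI the WT ratios of Ttk to Bub1b are 0.050 and 0.068 and the mutant ratios lie between 0.302 and 0.352.

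The summed FPKM of all 6 went in WT from 607.7 and 440.4 at GV to 133.4 and 69.0 in zygotes. The shares of Ttk, Bub1, Bub3 and Mad1l1 in this sum were lower in both WT MII libraries than in both WT GV libraries. Those of Bub1b and Mad2l1 were higher, with no test. Bub3 made up 14.5% and 17.1% in WT GV and 3.72% and 3.68% at MII. Ttk made up 13.5% and 14.7% of the sum in WT GV, 2.46% and 3.37% at MI and 2.03% and 1.51% at MII. Bub1b made up 25.6% and 23.6% at GV, 49.6% and 49.5% at MI and 31.5% and 45.0% at MII. Mad2l1 made up 40.8% and 39.2% at GV, 32.2% and 29.6% at MI and 61.5% and 48.4% at MII. In MI oocytes of Cnot6l-/- Ttk still made up 13.0% and 13.3%, and in those of Btg4-labelled oocytes 13.2% and 13.4%, close to the WT share at GV. In the 2 WT zygote libraries Bub1b made up 8.07% and 31.4%.

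The genes around the checkpoint were followed in 3 lists. Partners and regulators of the checkpoint (21 genes, 20 tested) included CDC20, the KNL1 scaffold (listed as Casc5), the ROD-ZW10-Zwilch complex and the chromosomal passenger complex. The outer kinetochore list held 8 genes of the Ndc80 and Mis12 complexes, which bind microtubules and dock the checkpoint proteins. The third list held the target of the checkpoint, the anaphase-promoting complex with its regulators and substrates (21 tested of 22). From GV to MI in WT, 12 of 20 partners, 7 of 8 outer kinetochore genes and 12 of 21 target genes were called lower and none higher. Over all tested genes 65.1% were called lower. The medians of the lists were -1.10, -1.63 and -1.0 beside -0.95 over all tested genes. Without WT MI library 3 the outer kinetochore count was 4. After scaling, the partners were 5 higher and 4 lower, the target genes 5 higher and 1 lower, and 3 of 7 outer kinetochore genes were lower and none higher, beside 15.2% of genes called higher and 30.5% lower.

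From GV to MII in WT, 18 of 20, 8 of 8 and 17 of 21 were called lower, beside 83.4% of all tested genes, with medians of -1.97, -2.04 and -2.01 beside -1.37. Birc5, which encodes the passenger protein survivin, fell from a mean of 1424 to 60.7 FPKM (log2 difference -4.55 ± 0.37, adjusted p = 6e-09). Spc24 and Spc25, subunits of the Ndc80 complex, fell from 70.5 to 2.45 and from 106.2 to 4.36 FPKM (-4.37 ± 0.32, adjusted p = 1.9e-09, and -4.27 ± 0.73, adjusted p = 5e-05). Ube2c, an E2 enzyme of the anaphase-promoting complex, fell from 196.3 to 9.88 FPKM (-4.18 ± 0.33, adjusted p = 4.5e-09), and its inhibitor gene Fbxo5 from 98.5 to 5.61 (-3.91 ± 0.32, adjusted p = 6.2e-09). Securin, from Pttg1, stayed abundant at 3023 FPKM against 4314 at GV (-0.57 ± 0.39, adjusted p = 0.18), and the kinetochore motor gene Cenpe stood at 17.8 against 27.9 (-0.62 ± 0.35, adjusted p = 0.11). After scaling, the lists split, with 9 lower and 3 higher of 20 partners, 3 lower and 2 higher of 7 outer kinetochore genes and 9 lower and 3 higher of 21 target genes from GV to MII, beside 43.2% of genes called lower and 14.9% higher.

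In the mutants at MI, 13 of 20 partners, 5 of 8 outer kinetochore genes and 10 of 21 target genes were called higher than WT in Cnot6l-/-, beside 60.3% of all tested genes, with 1 target gene lower, beside 1.30%. In Btg4-labelled oocytes 15, 6 and 11 were called higher, beside 68.7%, and none lower. The count of target genes called in Cnot6l-/-, 11 in either direction, was 6 without WT MI library 3 or Cnot6l-/- MI library 2. The medians, 1.03, 0.92 and 0.59 in Cnot6l-/- and 1.37, 1.35 and 0.84 in Btg4-labelled oocytes, lay around those of all tested genes, 0.87 and 0.99. After scaling in Cnot6l-/-, 5 partners were higher and 4 lower, 2 outer kinetochore genes higher and 1 lower, and 4 target genes higher and 6 lower, beside 35.8% of genes called higher and 11.0% lower. In Btg4-labelled oocytes they were 5 and 3, 3 and none, and 4 and 4, beside 32.5% and 9.82%.

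At MII, 9 partners, 5 outer kinetochore genes and 11 target genes were called higher in Cnot6l-/-, beside 44.3% of all tested genes, and 9, 3 and 7 in Btg4-labelled oocytes, beside 28.3%, none lower in either. The medians were 0.36, 0.76 and 0.90 in Cnot6l-/- beside 0.56 over all tested genes, and 0.69, 0.42 and 0.52 in Btg4-labelled oocytes beside 0.38. In Cnot6l-/- the outer kinetochore count was 2 without either WT library or the mutant library 1. In Btg4-labelled oocytes the counts were 5, 0 and 4 without the mutant library 1, and the target count was 4 without WT MII library 2. After scaling in Cnot6l-/-, the partners were 8 higher and 2 lower, the outer kinetochore genes 2 and 1 and the target genes 6 and 2, beside 34.3% of genes called higher and 8.69% lower. In Btg4-labelled oocytes they were 6 and 2, 2 and 2, and 4 and none, beside 21.8% and 6.55%. Ube2c had the largest difference of the target genes in both, at 108.2 FPKM in Cnot6l-/- and 61.1 in Btg4-labelled oocytes against 9.88 in WT (log2 differences 3.33 ± 0.33, adjusted p = 6e-07, and 2.49 ± 0.33, adjusted p = 2.7e-05). Spc25 was at 25.0 and 23.8 FPKM against 4.36 (2.14 ± 0.73, adjusted p = 0.025, and 2.1 ± 0.73, adjusted p = 0.041). Birc5 led the partners in Cnot6l-/-, at 344.2 FPKM against 60.7 (2.50 ± 0.37, adjusted p = 3.4e-05), together with the meiotic Aurora kinase gene Aurkc, at 192.6 against 36.5 (2.37 ± 0.43, adjusted p = 0.00029). In Btg4-labelled oocytes the largest differences among partners were those of Ccdc99, which encodes the dynein adaptor Spindly, at 31.6 FPKM against 7.07 (2.00 ± 0.29, adjusted p = 6.6e-05), and Aurkb, at 4.41 against 0.52 (1.83 ± 0.25, adjusted p = 3.9e-05). The Ndc80 complex gene Nuf2 was not called in either, at 41.9 and 43.6 FPKM against 49.3 (-0.26 ± 0.42 and -0.20 ± 0.42, adjusted p = 0.64 and 0.80).

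How alike the members were over the 24 libraries is given as Pearson's r of log2(FPKM + 1), as a description, since all libraries share the falling total. As deposited, Bub1 and Ttk had r = 0.93 and Mad1l1 and Mad2l1 r = 0.30. After scaling these were 0.78 and -0.89, and Mad2l1 had a negative r with each of the other members. The 3 genes most like each member after scaling, of 4337 with a mean of at least 5 FPKM, were Osbpl9 (r = 0.97), Lgmn (0.94) and Spata5 (0.93) for Ttk, Adss (0.94), F630043A04Rik (0.93) and Fut8 (0.93) for Bub1, and Atp6v1g1 (0.95), Kpna2 (0.94) and Serpinb12 (0.93) for Bub3. For Bub1b they were P4hb, Atg16l1 and Lamb1 (each 0.92), for Mad1l1 Osbpl10, Rbm42 and Hgs (each 0.95), and for Mad2l1 Hprt, Anapc10 and Gm97 (each 0.97). No member was among the 3 most alike of another.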

How the data were processed

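The authors deposited FPKM per gene with 2 decimals. Per the submitters' processing notes, CASAVA 1.8, TopHat2 2.0.11, Bowtie2 2.1.0 and Cufflinks 2.2.1 were used with mm9, and per the labels' protocols libraries were made with Smart-Seq2 and Tn5. Values came from the series table; the single-library tables, in which part of the lines hold all 24 columns, were left out. MI columns carry the numbers 2 and 3 and their titles 1 and 2, so they were assigned by group only.

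A gene was tested if the mean of any group reached 1 FPKM (10884 genes). log2(FPKM + 1) was fitted in limma 3.58.1 (R 4.3.3) with 1 mean per group over all 24 libraries and eBayes with a trend; tests were two-sided, p-values were adjusted by Benjamini-Hochberg over all tested genes, and genes under 0.05 were called. The pseudocount makes changes of low genes look smaller. Depth is unknown and the spread of 2 libraries per group sets the precision. The alternatives tried were median-ratio scaling (9823 genes tested), a pseudocount of 0.1, no filter, the groups compared alone, the library number as a block and each library left out in turn, the lone library then assumed to vary like the others.

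Named genes are the members, Cnot6l and Btg4, the 2 highest and 2 lowest of each list in WT MII against GV and in each mutant against WT at MII, and the 3 genes most like each member. The lists were checkpoint partners, outer kinetochore and checkpoint target, beside markers of oocytes, cumulus and granulosa cells, sperm, and blood and immune cells. The members and lists were chosen with earlier results of these data known. Python 3.11.15 with pandas 2.3.3, numpy 2.4.6 and matplotlib 3.10.9 were used for tables and plots.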

Additional observations from a re-analysis of the deposited data

Results flagged for a closer look

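For 10 member changes the difference between a mutant group and WT passed the test of the difference itself, the interaction term in limma with Benjamini-Hochberg adjustment over all tested genes. From GV to MI, the change of Ttk lay 3.15 (log2) above that of WT in Cnot6l-/- and 2.90 above it in the Btg4-labelled group, that of Bub1 2.46 and 2.21, and that of Mad1l1 2.24 in Cnot6l-/-. From GV to MII, the change of Bub1 lay 2.18 above that of WT in Cnot6l-/- and 2.75 above it in the Btg4-labelled group, that of Ttk 1.76 and 1.66, and that of Bub3 2.12 in Cnot6l-/-. Over all tested genes 44.4% (Cnot6l-/-) and 45.4% (Btg4-labelled) were called higher in this test from GV to MI, where 3 and 2 of 6 members were, and 24.1% and 13.3% from GV to MII, again with 3 and 2 of 6 members. Both mutant groups share the WT libraries in these tests.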

How the results depend on the processing

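Read depth is unknown and each group has 2 libraries, so a call rests on the spread between them. The deposited scaling is not known, and median-ratio scaling assumes that most of the 3677 genes used did not change. Of the member differences in all comparisons, 119 kept direction and side of the threshold with a pseudocount of 0.1 and 108 without a filter. With only the groups compared 100 did, and after median-ratio scaling 60. Of the other differences after scaling, 36 changed sign. Another 18 lost a call and 6 gained one with the sign unchanged. The cause of the changes below was not tested.

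After scaling 36 differences changed sign. In WT these were MI against GV for Mad1l1 (0.05) and Bub3 (0.12), MII against GV for Mad2l1 (0.83) and Bub1b (1.0) and zygote against MII for Mad1l1 (0.21). For MII against GV they were Mad2l1 (0.33) and Bub1b (0.64) in Cnot6l-/- and Mad2l1 (0.57) and Bub1 (0.37) in the Btg4-labelled group, whose Bub3 from GV to MI was 0.07. In Cnot6l-/- against WT they were Bub1b (-0.79) and Bub3 (-0.35) at MI, Mad2l1 (-0.59), Mad1l1 (-0.02) and Bub1b (-0.76) at MII, and Mad2l1 (-0.05), Bub1 (-0.22) and Bub3 (-0.33) in zygotes. In the Btg4-labelled group they were Mad2l1 (-0.83), Bub1b (-0.55) and Bub3 (-0.14) at MI, Mad1l1 (-0.05) and Bub1b (-0.51) at MII, and Mad2l1 (-0.52), Mad1l1 (-0.07) and Bub1b (-0.52) in zygotes. For the change from GV to MII minus that of WT they were Mad2l1 (-0.50), Mad1l1 (-0.24) and Bub1b (-0.35) in Cnot6l-/- and Mad2l1 (-0.26) in the Btg4-labelled group. For the change from GV to MI they were Mad2l1 (-0.86), Bub1b (-0.39) and Bub3 (-0.49) in Cnot6l-/- and Mad2l1 (-0.10), Bub1b (-1.08) and Bub3 (-0.05) in the Btg4-labelled group.

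Small relative moves are left out here, such as 3 to 2 members called for each mutant group against WT at MII after scaling. Otherwise the number of members called moved as follows. After scaling it was 2 for WT MI against GV (5 as reported), 2 for WT MII against MI (5), 3 for WT zygote against MII (1), 1 for Cnot6l-/- MII against GV (4), 2 for the Btg4-labelled group against WT at MI (4) and 1 for its GV to MI change (2). Without a filter it was 1 for WT MII against MI (5), 1 for the Btg4-labelled group in zygotes (2), 1 for its GV to MI change (2), and 1 for the GV to MII change in Cnot6l-/- (3) and in the Btg4-labelled group (2). With only the groups compared it was 0 for WT zygote against MII (1), 0 for zygotes of Cnot6l-/- (1) and of the Btg4-labelled group (2), 1 and 0 for their GV to MII changes (3 and 2), and 4 for Cnot6l-/- MI against GV (1). That last count was 0 with a pseudocount of 0.1.

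Library numbers are shared by groups but only 2 exist, no label ties a number to a batch, and same-numbered libraries had correlations from -0.27 to 0.71, so pairing was not shown for the series as a whole. The 9 correlations among MII and zygote groups ran from 0.30 to 0.71. Those of the WT and Cnot6l-/- GV groups with each other, MII or zygotes, 5 in number, ran from 0.28 to 0.55. The 4 with the GV group labelled Btg4-/- ran from -0.27 to -0.06 and the 3 between MI groups from -0.09 to 0.01. With the replicate block the Btg4-labelled group against WT at GV had 1 member called, Mad1l1 (1.01, adjusted p = 0.035, limma), instead of 0. Another 4 member differences gained a call, Mad2l1 in WT MII against GV (-1.09, adjusted p = 0.037), Bub1 in MII against GV of the Btg4-labelled group (-0.78, 0.041) and, at MI against WT, Bub3 in Cnot6l-/- (0.57, 0.024) and Bub1b in the Btg4-labelled group (0.67, 0.023); none lost one and 79 of 84 did not change. MI columns carry other numbers than their titles, so MI against another stage had no block.

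Leaving out each library in turn gave these ranges of members called. In WT they were 2 to 4 for MI against GV, 1 to 3 for MII against MI, 4 to 5 for MII against GV and 0 to 1 for zygote against MII. MII against GV gave 3 to 4 in Cnot6l-/- and 3 to 5 in the Btg4-labelled group, and MI against GV 0 to 1 and 0 to 0. Against WT, Cnot6l-/- gave 0 to 0 at GV, 3 to 3 at MI, 1 to 3 at MII and 0 to 1 in zygotes, and the Btg4-labelled group 0 to 1, 3 to 4, 2 to 3 and 0 to 2. The GV to MI change gave 2 to 3 and 1 to 3, and the GV to MII change 1 to 3 and 0 to 2.

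Differences that changed sign in such a fit, none of them called as reported, had these ranges (log2). In WT they were Bub1b -0.21 to 0.37 for MI against GV, Mad2l1 -0.10 to 0.50 for MII against MI, and Mad1l1 -0.48 to 0.18 and Bub3 -0.14 to 1.0 for zygote against MII. In Cnot6l-/- against WT they were Mad2l1 -0.42 to 0.10, Mad1l1 -0.07 to 0.43, Bub1 -0.81 to 0.11 and Bub3 -0.07 to 0.21 at GV, Mad2l1 -0.32 to 0.28 and Bub1b -0.10 to 0.39 at MI, Mad2l1 -0.18 to 0.65 and Bub1b -0.15 to 0.29 at MII, and Mad2l1 -0.13 to 1.32, Mad1l1 -0.39 to 0.27, Bub1 -0.18 to 0.54 and Bub3 -0.29 to 0.85 in zygotes. In the Btg4-labelled group they were Bub1 -0.50 to 0.43, Bub3 -0.20 to 0.10 and Ttk -0.10 to 0.24 at GV, Mad2l1 -0.87 to 0.35 and Bub1b -0.01 to 0.43 at MII, and Mad2l1 -0.49 to 1.24, Bub1b -0.13 to 0.82 and Bub3 -0.78 to 0.36 in zygotes. Its MI against GV gave Mad2l1 -0.51 to 0.07, Mad1l1 -0.27 to 0.35, Bub1b -0.14 to 0.48 and Bub3 -0.16 to 0.14. The GV to MII change minus WT of Mad2l1 gave -0.02 to 0.81 in Cnot6l-/- and -0.18 to 1.05 in the Btg4-labelled group, and the GV to MI change gave -0.15 to 0.45 for Mad2l1 in Cnot6l-/- and -0.22 to 0.40 for Bub1b in the Btg4-labelled group.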
